A study of Homo sapiens with 8 samples.

Results

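The proximal short arm of chromosome 7, from band 7p14.1 into 7p11.2, holds EGFR, the gene of the kinase that erlotinib inhibits. A stretch of 16.3 Mb, chr7:40000001-56300000 on hg19, was cut into 1630 tiles of 10 kb, out of 309557 full tiles on all chromosomes. H3K9me3 was measured there by ChIP-seq in PC9, a human cell line from a lung adenocarcinoma whose EGFR has an activating mutation. DTP + TSA cells were drug-tolerant persisters (DTP), the survivors of 8 days in 1 uM erlotinib, that also received 50 nM trichostatin A (TSA), an inhibitor of histone deacetylases, for 5 hours. DTP cells were the same kind of survivors without TSA, and parental cells had no treatment. All 3 states share the line and the antibody target, and the persisters are the fraction of the culture that outlived the drug. For each state there was 1 H3K9me3 library, deposited as a list of enriched intervals. The stretch was chosen from these lists, because bands in it were less covered in DTP than in parental cells. The contrast of DTP with parental cells is therefore a description, with no test. Having 1 library a state, the study allows no test of the spread between replicates, and p-values are left out. Read depth is unknown from the lists, and a place without an interval is a place without a call.

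Trimethylation of lysine 9 on histone H3 marks constitutive heterochromatin. It is set by SUV39H and SETDB1 methyltransferases, is bound by HP1 proteins, and covers satellite repeats, transposons and clusters of zinc finger genes in most human cells. EGFR codes for the epidermal growth factor receptor, a receptor tyrosine kinase at the surface of epithelial cells. H3K9me3 over a promoter is known to go with a silent gene, while EGFR is the driver oncogene of PC9 cells.

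The promoter of EGFR is shown because the parental H3K9me3 domain beside the gene ended just inside the start of EGFR. The nearest upstream DTP interval ended at -0.6 kb from that start, which is rounded to 1 kb. The 250 bases before the gene start come from RefSeq on GRCh38.p14, chr7:55018767-55019016, plus strand, matched by symbol and not converted to hg19. Capitals mark the GC box GGGCGG on either strand.
EGFR: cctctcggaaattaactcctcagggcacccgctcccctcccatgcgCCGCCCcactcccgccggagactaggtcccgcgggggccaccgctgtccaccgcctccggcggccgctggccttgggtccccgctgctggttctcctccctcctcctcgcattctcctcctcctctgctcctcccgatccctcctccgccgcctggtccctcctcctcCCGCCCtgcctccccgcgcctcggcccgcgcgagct
It holds 2 GC boxes and 25 CG dinucleotides, and 73.6% of its bases are G or C. Over 35116 RefSeq promoter windows cut to the same length, the median was 58% G or C with 11 CG dinucleotides, and 42.6% held a GC box. Fewer CG dinucleotides than in EGFR were found in 78.4% of these windows.

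In total, H3K9me3 intervals covered 8.36% of the 16.3 Mb in DTP + TSA, 8.25% in DTP and 12.8% in parental cells. In length this was 1362 kb in DTP + TSA, 1344.8 kb in DTP and 2079.8 kb in parental cells. DTP therefore had 0.647 times the parental covered length, and DTP + TSA had 1.01 times that of DTP. Over all chromosomes the order was the other way. Coverage was 5.79% in DTP + TSA, 5.32% in DTP and 4.05% in parental cells, so that DTP had 1.32 times the parental length. On chromosome 7 as a whole DTP had 1.05 times the parental length. A neighbouring comparison stretch, chr7:20000001-40000000, was covered to 7.10% in DTP + TSA, 7.21% in DTP and 7.30% in parental cells, a DTP to parental ratio of 0.987. The direction over all chromosomes depended on which intervals were taken. With as many of the strongest intervals taken from each library, DTP had 0.708 times the parental length over all chromosomes, 0.721 times in the comparison stretch and 0.467 times in the 16.3 Mb. That setting keeps all 23842 parental intervals and shortens only the persister lists, so it can only lower the ratio. With intervals at or above their library's median mean value, the ratio was 1.24 over all chromosomes, 1.23 in the comparison stretch and 0.617 in the 16.3 Mb.

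The smaller covered length came with more intervals, not fewer. The 16.3 Mb held 343 intervals in DTP + TSA, 309 in DTP and 213 in parental cells. Their median length was 2800 bp in DTP + TSA, 3400 bp in DTP and 6600 bp in parental cells. More and shorter persister intervals were general. Over all chromosomes there were 53000 in DTP + TSA, 47866 in DTP and 23842 in parental cells, with medians of 2400, 2400 and 3800 bp. The comparison stretch held 416 in DTP + TSA, 394 in DTP and 216 in parental cells, with medians of 2700, 3000 and 5300 bp. Intervals of at least 10 kb numbered 17 in DTP + TSA, 15 in DTP and 59 in parental cells. Such long intervals made up 4.96% of the list in DTP + TSA, 4.85% in DTP and 27.7% in parental cells, beside 3.46%, 2.73% and 8.17% of the same 3 lists over all chromosomes. Above 30 kb there were 0 in DTP + TSA, 1 in DTP and 10 in parental cells. The parental library thus had many of its intervals here as long domains, and both persister libraries had short ones.

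**Figure D1:**
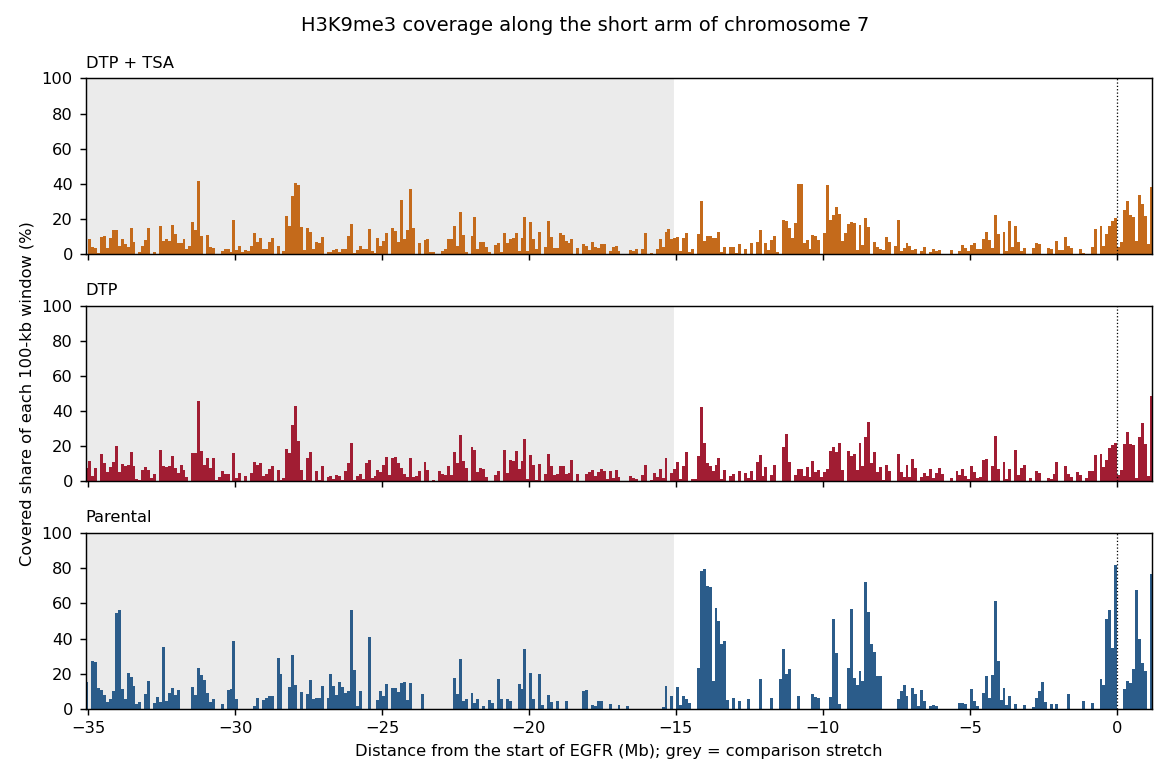
Covered share of each 100-kb window (y axis, %) against its distance from the start of EGFR (x axis, Mb) in DTP + TSA, DTP and parental cells, 1 library each; grey marks the comparison stretch and the dotted line the start of EGFR. Parental peaks near -14 Mb, near -9 Mb, just left of EGFR and at the right end are lower in both persister libraries, of which the last keeps 38% in DTP + TSA and 48.8% in DTP, against 76.6% in parental cells.

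Coverage was set down tile by tile to find where the parental domains were missing. A loss tile was defined as a tile whose covered share was at least 50 percentage points lower in DTP than in parental cells, and a gain tile as the mirror. Of the 1630 tiles, 124 (7.61%) were loss tiles, where percent called over all full tiles was 1.07%. The comparison stretch had 64 of 2000 (3.2%). Gain tiles numbered 36 (2.21%), beside 1.26% over all tiles and 33 (1.65%) in the comparison stretch. Neighbouring tiles are not independent and the choice of the stretch used them, so these shares are given as descriptions.

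A tile can be a loss tile only where the parental library covered it, and this library covered much here. At least 50% of a tile was covered in 91 tiles in DTP + TSA, 101 in DTP and 206 in parental cells. A tile was fully covered in 8 cases in DTP + TSA, 8 in DTP and 70 in parental cells. Read against the 206 parental tiles, 124 (60.2%) were loss tiles. The same share was 36.0% over all chromosomes and 51.6% in the comparison stretch. The loss tiles averaged 11.9% covered in DTP + TSA, 10.4% in DTP and 86.1% in parental cells. Just inside the limit, 33 tiles had a fall of 50 to 60 points, the nearest at -50. Just outside it, 16 tiles missed the limit by under 10 points, the nearest at -48. A fall of 90 points or more was seen in 33 tiles.

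Loss tiles stood together in a few places. A loss block was defined as at least 5 loss tiles with at most 3 other tiles between neighbours. The 16.3 Mb held 9 loss blocks, and the comparison stretch held 1. All chromosomes held 79, so that 11.4% of the blocks lay in 0.527% of the genome. The stretch was chosen for lower coverage in DTP, so a high share of blocks follows in part from the choice. It also held 206 of the 9152 tiles that were at least 50% covered in parental cells, where alone a loss tile can lie. The 9 blocks were 50 to 300 kb long and took in 73 of the 124 loss tiles (58.9%), beside 15.6% of loss tiles in the comparison stretch and 21.6% over all chromosomes. Inside the blocks coverage was 13.4% in DTP + TSA, 14.6% in DTP and 74.7% in parental cells. Outside them the 16.3 Mb was covered to 8.02% in DTP + TSA, 7.82% in DTP and 8.58% in parental cells. The blocks together had 619.4 kb less cover in DTP than in parental cells, where the difference over the whole 16.3 Mb was -0.735 Mb. Both differences are net values, as are the near-equal shares outside the blocks. Over the 16.3 Mb, DTP lacked 1.34 Mb of the parental cover and gained 0.607 Mb elsewhere. Losses outside the blocks can thus be offset by gains, and the part of the 1.34 Mb inside the blocks was not measured.

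**Figure D2:**
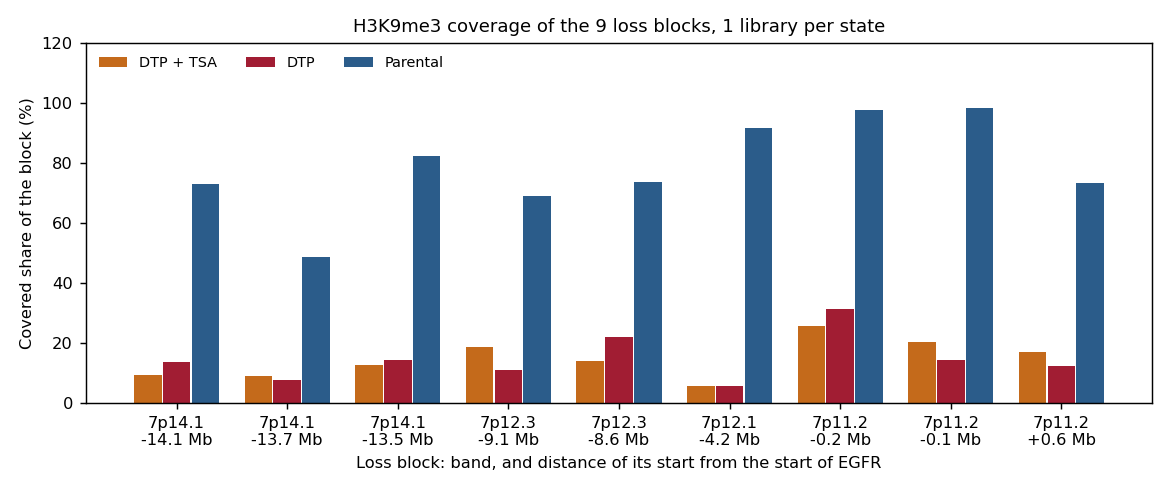
Covered share (y axis, %) of each of the 9 loss blocks in DTP + TSA, DTP and parental cells (bars, 1 library each), labelled by band and distance of the block's start from the start of EGFR. Parental bars stand between 48.7% and 98.3%, DTP bars between 5.6% and 31.5% and DTP + TSA bars between 5.6% and 25.8%. The blocks were picked as runs of tiles lower in DTP than in parental cells, so the gap between those bars follows from the rule.

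The group of blocks with the largest shortfall in covered length, 303 kb against 176.2 kb for the 3 blocks of 7p11.2, lay in 7p14.1, about 14 Mb from EGFR on the side away from the centromere. Within 640 kb, chr7:41000001-41640000, coverage was 9.22% in DTP + TSA, 11% in DTP and 59.2% in parental cells. The 640 kb held 21 intervals in DTP + TSA, 23 in DTP and 28 in parental cells, so that the number was near the same while the lengths differed. The first block, chr7:41000001-41300000, had 19 loss tiles and the fourth largest shortfall of all 79 blocks, 178.0 kb. Coverage in this block was 9.27% in DTP + TSA, 13.7% in DTP and 73.0% in parental cells. The 13 parental intervals that met the block were up to 42.6 kb long, and the longest of the 12 in DTP was 8.0 kb. This contrast depends on where the block was cut, since the 42.6-kb interval began left of it. DTP intervals, counting an 18-kb interval that ends before the block, covered 47.9% of the 42.6 kb. A parental domain of 39.8 kb at chr7:41062401-41102200 kept 6.03% of its length under intervals in DTP + TSA and 20.1% in DTP.

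The next blocks in 7p14.1 lay close by. Chr7:41350001-41490000 was covered to 9.0% in DTP + TSA, 7.86% in DTP and 48.7% in parental cells. Chr7:41540001-41640000 was covered to 12.6% in DTP + TSA, 14.4% in DTP and 82.2% in parental cells. To the left of the first block the 100 kb next to it were covered to 30.4% in DTP + TSA, 42.6% in DTP and 78.6% in parental cells. That flank includes the second longest DTP interval of the 16.3 Mb, 18 kb at chr7:40981801-40999800, which ends just before the block. To the right of the third block the next 100 kb were nearly bare in the persisters, with 1.0% in DTP + TSA and 0.6% in DTP, against 11.2% in parental cells.

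**Figure D3:**
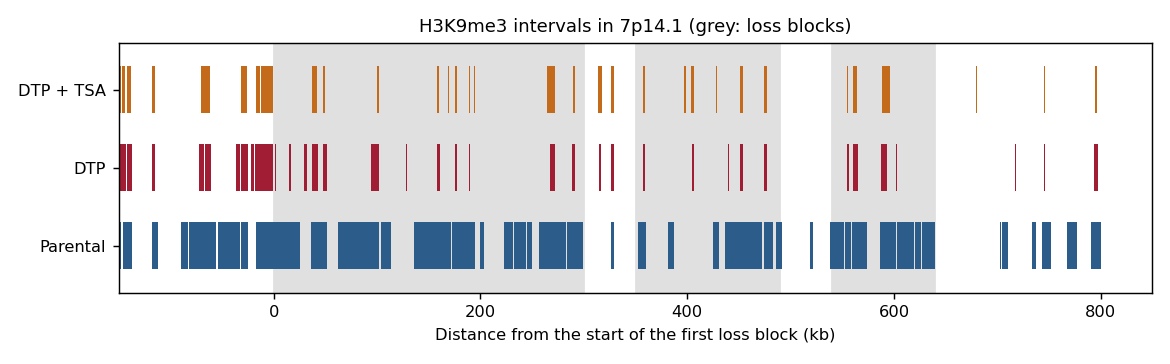
H3K9me3 intervals (bars, drawn to scale) in DTP + TSA, DTP and parental cells, 1 library each, against the distance from the start of the first loss block in 7p14.1 (x axis, kb); grey marks the 3 loss blocks of the band. Broad parental bars fill 73.0%, 48.7% and 82.2% of the 3 blocks, and thin persister bars stand inside them.

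Band 7p12.3 held a pair of blocks. At chr7:46020001-46090000 coverage was 18.9% in DTP + TSA, 11.1% in DTP and 69.1% in parental cells. At chr7:46520001-46630000 it was 14.2% in DTP + TSA, 22.2% in DTP and 73.6% in parental cells. The first of these held parental domains with no DTP call at all, 20 kb at chr7:46065401-46085400 and 18 kb at chr7:46031201-46049200. Intervals of DTP + TSA covered 13% of the 20-kb domain and 0% of the 18-kb domain. Over all of 7p12.3 covered length was 293.4 kb in DTP + TSA, 345.2 kb in DTP and 548.4 kb in parental cells.

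A single domain made up the block in 7p12.1, chr7:50890001-50940000. The longest parental interval of the 16.3 Mb, 49.8 kb at chr7:50886001-50935800, filled 91.6% of the block in parental cells. Persister intervals filled 5.6% of it in DTP + TSA and 5.6% in DTP. The mean value of this domain was 8.46, near the median of its own library, 8.22. Mean values are the authors' signal within an interval and are read here only within a library.

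The edges of the blocks differed in how abruptly parental coverage ended. The 100 kb left of the 7p12.1 block were covered to 3.2% in DTP + TSA, 8.8% in DTP and 9.2% in parental cells, and the 100 kb right of it to 25% in DTP + TSA, 29.6% in DTP and 46% in parental cells. On its right side the persisters thus kept more cover next to the block than inside it, which the picking of tiles low in DTP favours. Left of the block that begins at chr7:55680001 coverage was 8.4% in DTP + TSA, 8% in DTP and 2.4% in parental cells. On that block's right side it was 33.8% in DTP + TSA, 25.4% in DTP and 39.6% in parental cells. Parental coverage of the 100 kb next to a block was below that of the block itself on both sides of 8 of the 9 blocks. The exception was the first block of 7p14.1, on its left. A block begins and ends with tiles covered in parental cells, so lower parental coverage beside it follows largely from the rule.

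Not all of the bands were less covered in DTP. In 7p13 covered length was 296 kb in DTP + TSA, 157 kb in DTP and 134.8 kb in parental cells. In 7p12.2 it was 34 kb in DTP + TSA, 54.2 kb in DTP and 27 kb in parental cells. The 16.3 Mb was cut into 17 windows of 1 Mb, of which the last, chr7:56000001-56300000, was shorter. Of these, 10 were lower and 7 higher in DTP, with differences of DTP minus parental cells between -34.3 and 2.62 points. In the comparison stretch 7 of 20 windows were lower and 13 higher, between -9.82 and 4.58 points.

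The 2 flanks of EGFR differed in net coverage. The 500 kb left of the gene, chr7:54587001-55087000, were covered to 14.0% in DTP + TSA, 16.4% in DTP and 46.3% in parental cells. DTP had 0.355 times the parental length there, in 17 intervals against 9 in parental cells, and DTP + TSA had 18. The 500 kb right of the gene, chr7:55275001-55775000, were covered to 21.5% in DTP + TSA, 19.7% in DTP and 22.4% in parental cells, a DTP to parental ratio of 0.88. The right flank holds both most of a loss block and persister intervals without a parental call, so that its ratio is a net value. Gene and flanks together were covered to 15.4% in DTP + TSA, 15.5% in DTP and 29.4% in parental cells, a ratio of 0.528. Gene order in RefSeq puts VSTM2A and SEC61G, which codes for a subunit of the protein channel of the endoplasmic reticulum, on the upstream side of EGFR, and LANCL2 and VOPP1 on the downstream side. Their hg19 positions were not used here.

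EGFR itself carried little H3K9me3 in any library. Over its 188 kb, chr7:55087001-55275000, covered length was 5.2 kb in DTP + TSA, 3.8 kb in DTP and 6.0 kb in parental cells, or 2.77%, 2.02% and 3.19%. The place of the mark in the gene differed between the states. In parental cells it was the end of a 47-kb domain, chr7:55046001-55093000, that ran from 41 kb before the start of the gene to 6 kb inside it. The rest of the gene had no parental call, and the next parental interval began 284.8 kb from the gene start. Gene borders here are rounded to 1 kb.

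In DTP the start of the gene was free of calls. The nearest DTP interval on the upstream side ran from -7.8 to -0.6 kb, and the 47-kb parental domain was covered to 25.1% by 2 DTP intervals. In DTP + TSA 3 intervals covered 21.7% of that domain, and the interval nearest the gene lay across its start, from -1.6 to 1.2 kb. Inside the gene, DTP had 1 interval, from 58 to 61.8 kb, with a mean value of 24.5 that exceeded 94.1% of DTP intervals. DTP + TSA had an interval at the same place, from 58.2 to 60.6 kb, with a mean value of 57.2 that exceeded 98.4% of its library. A further one in DTP + TSA ran from 48 to 49.6 kb. Neither place had a parental call.

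The blocks in 7p11.2 lay on both sides of EGFR. Next to the gene, chr7:55010001-55070000 was covered to 20.3% in DTP + TSA, 14.3% in DTP and 98.3% in parental cells. Further upstream, chr7:54850001-54930000 was covered to 25.8% in DTP + TSA, 31.5% in DTP and 97.8% in parental cells. In that block a parental domain of 47.4 kb, chr7:54842201-54889600, met 3 DTP intervals with 25.7% of its length and 2 DTP + TSA intervals with 20.7%. On the downstream side, chr7:55680001-55800000 was covered to 17.0% in DTP + TSA, 12.5% in DTP and 73.2% in parental cells. It holds the longest parental domain without a call in DTP, 28.8 kb at chr7:55748201-55777000, which also had none in DTP + TSA.

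Between these blocks, downstream of EGFR, some persister intervals had no parental call and others stood in all 3 libraries. The longest DTP interval with no parental call in the 16.3 Mb was 12.6 kb at chr7:55293401-55306000, and the next was 11.8 kb at chr7:55404201-55416000. DTP + TSA intervals covered 84.1% of the longer and 89.8% of the shorter. The mean value of the 11.8-kb interval was 34.2, above 97.5% of DTP intervals. A domain present in all 3 libraries, picked after its values were seen, had near the same borders in each. It ran from 361.6 to 372.8 kb in DTP + TSA, from 361.4 to 373.2 kb in DTP and from 361.2 to 373.2 kb in parental cells, relative to the gene start. Another had borders that differed, from 288.6 to 303.2 kb in DTP + TSA, from 289.6 to 304.8 kb in DTP and from 284.8 to 296 kb in parental cells.

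**Figure D4:**
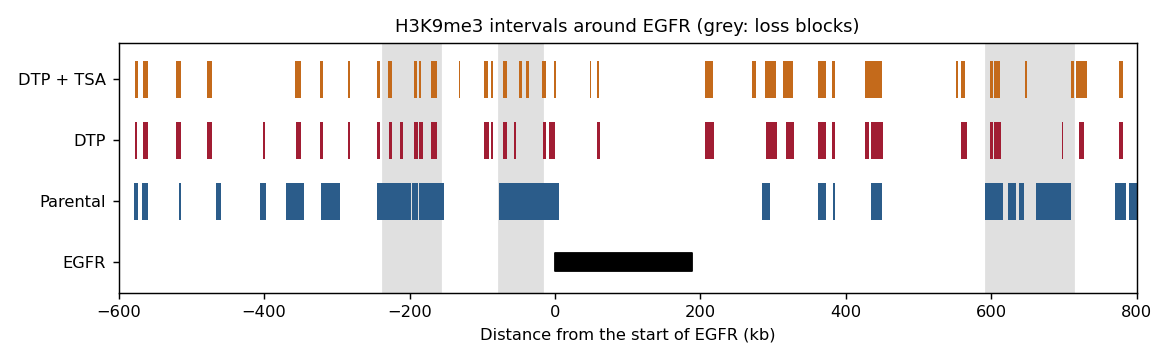
H3K9me3 intervals (bars, drawn to scale) in DTP + TSA, DTP and parental cells, 1 library each, and the body of EGFR (black), against distance from the start of EGFR (x axis, kb); grey marks the 3 loss blocks of 7p11.2. The left flank is covered to 14.0% in DTP + TSA, 16.4% in DTP and 46.3% in parental cells, while the gene body is nearly bare in each.

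What remained of the parental domains was mostly short pieces inside them. The 59 parental domains of at least 10 kb spanned 1.26 Mb and had a median length of 16600 bp. They met 71 DTP intervals, whose stretches inside the domains had a median of 4800 bp. No piece was found in 12 domains, 1 piece in 27 and at least 2 in 20, with 4 at most. The median domain kept 27.3% of its length under intervals in DTP + TSA and 34.6% in DTP. The same median over all chromosomes was 54.9% in DTP + TSA and 55.7% in DTP, and in the comparison stretch it was 27.2% in DTP + TSA and 30.9% in DTP. The low median is therefore found on both sides of 40 Mb. DTP intervals covered the summit of 37 domains (62.7%) while they covered 33.3% of the domain length.

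Kept and missing domains differed in their parental mean value. The 26 domains kept to under 25% in DTP had a median parental mean value of 9.97, and the 5 kept to at least 75% had 20.9. Across the 59 domains the share kept in DTP and the parental mean value had a Spearman correlation of 0.52, against 0.58 across 38 domains of the comparison stretch and 0.52 across 1949 over all chromosomes. These are descriptions across domains of the same libraries. The largest kept domain, 40.4 kb at chr7:55981401-56021800, had a parental mean value of 22.8 and kept 89.1% in DTP + TSA and 99% in DTP.

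**Figure D5:**
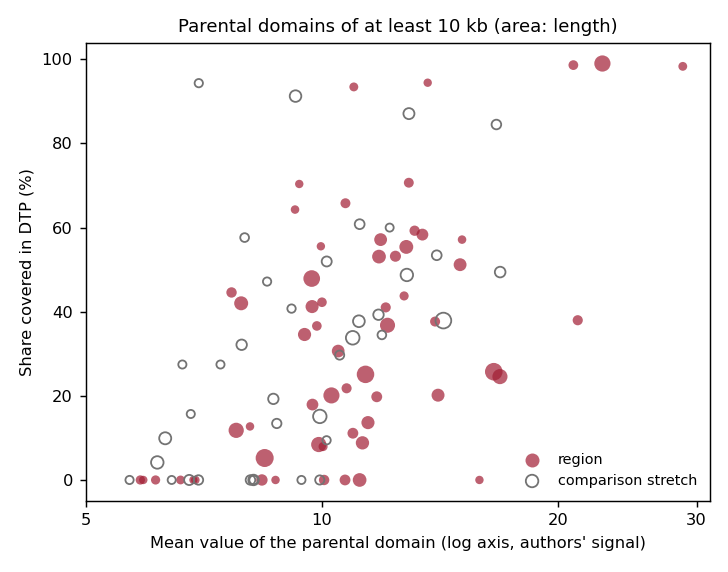
Share of each parental domain of at least 10 kb that DTP intervals cover (y axis, %) against the parental mean value of the domain (x axis, the authors' signal, log axis), with 59 domains of the 16.3 Mb filled, 38 of the comparison stretch open, and area in proportion to length. Along the bottom lie 12 filled domains that are bare in DTP, and 5 filled ones at the top are kept to at least 75%.

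Where intervals overlapped, their borders were compared. For DTP intervals that overlapped a parental one, 85 of 316 borders (26.9%) lay within 400 bp of the parental border, against 33.7% in the comparison stretch and 38.1% over all chromosomes. For DTP + TSA against parental cells it was 78 of 296 (26.4%). For DTP + TSA against DTP it was 280 of 466 (60.1%), against 67.5% in the comparison stretch and 63.8% over all chromosomes. These shares are descriptions, and DTP enters 2 of the contrasts.

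Whole intervals were also present in some lists and absent from others. Of 213 parental intervals, 82 (38.5%) overlapped none in DTP, beside 35.9% over all chromosomes, so that the share of parental intervals without a DTP call was near that of the whole list. Of 309 DTP intervals, 151 (48.9%) overlapped none in parental cells, beside 65.8% over all chromosomes. Of 343 DTP + TSA intervals, 110 (32.1%) overlapped none in DTP, beside 33.7%. Within the 16.3 Mb, the strongest place by mean value in both persister libraries was a short interval in 7p13. It was chr7:44908601-44914200 with a mean value of 95.3 in DTP + TSA and chr7:44907601-44914000 with 56.1 in DTP, and a parental interval overlapped it too. The highest mean value of the parental list in the 16.3 Mb was 28.8, at chr7:55448201-55460200 downstream of EGFR, in the domain that all 3 libraries shared.

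Coverage that DTP lacked was mostly lacking after TSA too. Of 1.34 Mb covered in parental cells and not in DTP, 6.84% was covered in DTP + TSA, beside 10.1% in the comparison stretch and 14.2% over all chromosomes. Of the 124 loss tiles, 6 were at least 50% covered in DTP + TSA. Against parental cells directly, 132 tiles (8.10%) were lower in DTP + TSA by at least 50 points, beside 1.11% over all tiles, and 42 (2.58%) were higher, beside 1.7%. DTP + TSA and DTP each share the parental library in these contrasts. Among the 36 gain tiles, coverage averaged 51.3% in DTP + TSA, 62.8% in DTP and 1.67% in parental cells, and 22 were at least 50% covered in DTP + TSA.

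Between the persister states few tiles differed by 50 points. DTP + TSA was higher than DTP in 16 tiles (0.982%), beside 0.787% over all tiles, and lower in 12 (0.736%), beside 0.238%. The higher share is near that of all tiles. Runs of 6, 3 and 2 of the higher tiles lay in 7p13. Coverage of chr7:44260001-44350000 was 55.3% in DTP + TSA, 1.56% in DTP and 0% in parental cells, and it holds the longest DTP + TSA interval that DTP lacks, 21 kb at chr7:44270801-44291800. Its mean value of 9.68 lay below the median of its library, 11.1. At chr7:45210001-45240000 coverage was 84% in DTP + TSA, 10% in DTP and 0% in parental cells. The longest DTP intervals without a call in DTP + TSA all lay in 7p12.3, the first with 10.6 kb at chr7:46760001-46770600, of which parental intervals covered 64.2%.

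How sharp the edges were was measured as the difference in coverage between the 500 kb right and the 500 kb left of each tile edge. The largest step was in parental cells, at the left side of the 7p14.1 group. Parental coverage was 64.1% right of position 40800000 and 3.24% left of it, a step of 60.9 points that 0.105% of 307181 tile edges over all chromosomes exceeded. At the same edge DTP had 19.6% on the right and 5.72% on the left. The step in DTP minus parental cells was -46.96 points, exceeded in size at 0.0313% of edges. The stretch was chosen for lower coverage in DTP than in parental cells, so this rank follows in part from the choice. With windows of 1000 kb the right side of the group had a parental step of -49.8 points at 41810000, with 2.12% on the right and 51.9% on the left. In the comparison stretch the largest parental step with 500-kb windows was -22.96 points, and that in DTP minus parental cells was 22.72. The contrast in DTP minus parental cells depended on the window. With 200-kb windows its largest step was -46.4 points at 40910000, close to -44.6 in the comparison stretch. With 1000-kb windows it was 40.3 points at 41880000, beside -16.48 in the comparison stretch.

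With windows of 500 kb the persister libraries had their largest steps on the other side of EGFR. They were 34.2 points in DTP + TSA and 28.7 in DTP at 56210000, in windows that reach past 56300000. Coverage there was 46.2% on the right and 17.5% on the left in DTP, and 71.1% on the right and 31.1% on the left in parental cells, so that the step is in both states. With windows of 200 kb the largest DTP + TSA step was elsewhere, -38.2 points at 44420000 in 7p13, beside -40.5 in the comparison stretch.

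Whether copy number differs between the states was not tested, since input signal was not analysed here. Every loss block held DTP intervals, from 2 to 12 of them, and DTP coverage inside the blocks (14.6%) exceeded that outside them (7.82%). The blocks were picked where parental coverage was high, 74.7% inside against 8.58% outside, and mean values exist only for called intervals. Neither these shares nor the mean values that follow are therefore a test of copy number. Median mean values in DTP were 13.3 inside the blocks and 13.2 outside them. In DTP + TSA they were 13.6 inside and 13.6 outside, and in parental cells 9.88 inside and 9.72 outside. Relative to the median of its own library, the median mean value of the 16.3 Mb was 1.22 in DTP + TSA, 1.28 in DTP and 1.18 in parental cells. For the comparison stretch it was 1.22 in DTP + TSA, 1.26 in DTP and 1.05 in parental cells. The number of cells and the mark per cell cannot be told apart in bulk chromatin.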

How the data were processed

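Of 8 samples, the 3 H3K9me3 libraries were used; H3K4me3 and input samples were not analysed here. The deposited lists give position, summit value and mean value per interval, both the authors' signal, per the file headers. The submitters' processing notes name BWA, SICER, hg19 and dm3, with neither version nor role. The sources used here do not give threshold, input or scaling, so values were compared only within a library. All intervals lay on a 200-bp grid, and no gap was below 800 bp. Chromatin was sheared to 300 to 500 bp and read with 150-bp reads, per the labels' protocols. Depth is unknown.

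Covered shares, tiles, blocks, borders and steps were computed with Python 3.11.15, numpy 2.4.6, pandas 2.3.3 and scipy 1.17.1, and drawn with matplotlib 3.10.9. Bands came from circlize 0.4.16 under R 4.3.3. Coordinates are 1-based on hg19 unless GRCh38 is named. The code was tested on simulated intervals, where 11 of 11 checks returned the known answer. The members and all rules were chosen with earlier results of these data known. Named items were EGFR, the 5 blocks with the largest falls, the 3 longest intervals of each library, and the 3 longest absent from parental cells or from DTP. Other blocks, domains and intervals were named after their values were seen. Alternatives changed the threshold, tile size and phase, gap, joining, weak and short intervals, border tolerance, step window and weighting.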

Additional observations from a re-analysis of the deposited data

How the results depend on the processing

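Of 89 recomputed values, 51 stayed within the set margin, 35 moved and 3 turned direction. The DTP to parental ratio of the 16.3 Mb was below 1 under every interval alternative. Taking as many of the strongest intervals from each library, it was 0.467, where the ratio was 0.721 in the comparison stretch and 0.708 over all chromosomes, and the DTP + TSA to DTP ratio was 0.916. That setting, which shortens only the persister lists, also gave 70.4% loss tiles among parental-covered tiles and 0.552% tiles higher after TSA. With intervals at or above their library's median mean value, loss tiles were 6.07% and tiles lower in DTP + TSA than in parental cells 6.32%. Joining within 5 kb gave 1.29% tiles lower after TSA. At 25 points, loss tiles were 11.8% of tiles and 73.8% of parental-covered ones, gain tiles 5.71%, tiles higher and lower after TSA 3.37% and 2.88%, and tiles lower in DTP + TSA than in parental cells 12.2%. Tiles of 20 kb gave 6.01% loss tiles, 0.123% gain tiles, 0.123% lower after TSA and 6.63% lower in DTP + TSA than in parental cells. Tiles of 5 kb gave 1.60% higher after TSA, and shifted tiles gave 1.47% gain tiles.

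Matched borders at 200 and 1000 bp were 19.3% and 40.8% for DTP against parental cells, 48.3% and 77.7% for DTP + TSA against DTP, and 18.2% and 42.2% for DTP + TSA against parental cells. The largest step with windows of 200 and 1000 kb was 38.2 and 25.6 points in DTP + TSA, 35.8 and 21.8 in DTP, and 71.7 and 49.8 in parental cells. For DTP minus parental cells it was 40.3 with 1000 kb. Mean values of the 16.3 Mb relative to the library turned below 1 when weighted by length, at 0.912 in DTP + TSA, 0.843 in DTP and 0.763 in parental cells, and were 1.46, 1.36 and 1.32 by summit value. The cause was not tested.

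No paired analysis was possible because each state has 1 library. Unknown depth, calling threshold and scaling limit every count and length. Joining intervals within 5 kb gave a DTP to parental ratio of 0.659.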
